A study of Mus musculus with 10 samples.

Results

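Tandem 3′ splice sites are pairs of acceptors that lie 3 nt apart at the start of the same exon, so that the choice between them adds or leaves out 3 nt of the mRNA. They were taken from the deposited table of splicing events in mouse N2A cells: every pair of alternative acceptors with exactly 2 sites and a distance of 3 nt entered if it had at least 10 reads in each of 6 samples. This gave 1896 pairs in 1611 genes, out of 155519 alternative acceptor rows in the table and 3842 pairs 3 nt apart at any depth. The measure throughout is the use of the upstream site, which is the site nearer the 5′ splice site and gives the exon that is 3 nt longer. It is the deposited percent spliced in (PSI) of that site, the share of the pair's reads that join to it. Near the read minimum, the 55 pairs whose lowest sample had 10 or 11 reads had a median use of 96.4%, and the 49 pairs just below it, with 8 or 9 reads, had a median of 91.0%.

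The study asked which exons depend on the RNA-binding splicing regulator Quaking (Qk). N2A cells, an established mouse neuroblastoma line, were transfected at 40 nM with siRNAs, either a pool directed at Qk (siQk, n = 3) or a pool that targets no gene (siNT, n = 3), and polyadenylated RNA was taken after 72 h. The samples are labelled as biological replicates, and nothing says whether they were transfected on separate days. A second experiment on neurons given cycloheximide was not analysed here.

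A 3′ splice site ends in the dinucleotide AG, which lies behind a stretch of pyrimidines and the branch point. The spliceosome tends to take the first AG downstream of the branch point, and the base just before the AG matters: C and T are favoured, A less so, and G is disfavoured. Where 2 AGs lie 3 nt apart the site is known as NAGNAG (N is any base), and both can be used. In coding sequence the choice keeps the reading frame.

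The following examples show the classes of tandem acceptor that the results turn on, each read 5′ to 3′ from GENCODE transcripts of the mm10 build, with both NAG triplets in capitals. The last 20 intron bases come first, then the upstream triplet, the downstream triplet and the first 20 bases of the shorter exon. The upstream site cuts between the triplets and the downstream site cuts after the second one, so the second triplet is the 3 nt segment that the choice adds or leaves out.
Tcf25, chr8:123403124-123403169, plus strand, both CAG: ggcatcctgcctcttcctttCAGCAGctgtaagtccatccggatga
Ctbp1, chr5:33248664-33248709, minus strand, both CAG: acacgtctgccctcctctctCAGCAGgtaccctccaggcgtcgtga
Dhx9, chr1:153478959-153479004, minus strand, TAG then CAG: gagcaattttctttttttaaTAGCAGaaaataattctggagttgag
Rnf10, chr5:115242039-115242084, minus strand, CAG then AAG: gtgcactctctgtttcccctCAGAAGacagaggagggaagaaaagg
Actn4, chr7:28897033-28897078, minus strand, CAG then GAG: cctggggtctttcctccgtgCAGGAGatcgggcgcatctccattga
Brd7, chr8:88334197-88334242, minus strand, AAG then CAG: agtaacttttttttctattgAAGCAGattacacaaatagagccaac
Acbd5, chr2:23099539-23099584, plus strand, AAG then TAG: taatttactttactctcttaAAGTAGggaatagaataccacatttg
Orc6, chr8:85306194-85306239, plus strand, AAG then GAG: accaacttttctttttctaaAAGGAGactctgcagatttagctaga
Srsf11, chr3:158031629-158031674, minus strand, GAG then CAG: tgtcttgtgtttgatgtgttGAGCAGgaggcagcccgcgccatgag
Exosc2, chr2:31676642-31676687, plus strand, GAG then TAG: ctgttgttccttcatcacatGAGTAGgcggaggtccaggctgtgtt

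The use of the upstream site differed widely between these examples, in siQk and in siNT. Tcf25, which encodes a factor of ribosome quality control, used both of its CAG sites about equally, with 53.54, 51.78 and 52.16% upstream in siQk and 50.79, 49.35 and 49.83% in siNT. Ctbp1, a transcriptional corepressor gene, also has 2 CAGs and used the upstream one at 82.2% ± 1.90 in siQk and 82.9% ± 1.77 in siNT (SD, n = 3 each, as for all such values). With an A before the upstream AG, Brd7, a subunit of a chromatin remodelling complex, used the upstream site at 7.51% ± 2.43 in siQk and 7.38% ± 0.85 in siNT. The same upstream AAG was nearly the sole site in Orc6, a subunit of the origin recognition complex, where the downstream triplet is GAG: 99.0% ± 0.83 in siQk and 99.2% ± 0.25 in siNT. Upstream GAG was almost unused in the splicing factor gene Srsf11, at 1.06% ± 0.20 in siQk and 1.21% ± 0.08 in siNT. Actn4, which encodes an actin crosslinker, has CAG followed by GAG and used the upstream site at 99.98% ± 0.04 in siQk and 99.97% ± 0.05 in siNT.

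The samples differed in depth. Reads of the exon events came to 33761573, 26595944 and 80481173 in siQk samples 1 to 3 and to 59997671, 37883497 and 78479832 in siNT samples 1 to 3. The median tandem acceptor had 87, 66 and 194 reads in the siQk samples and 154, 95 and 201.5 in the siNT samples. Of 15 markers of neuroblastoma and neuronal cells, 13 were in the table and 11 of them reached 1 CPM (the usual scaling of a count to the library, here to all exon-event reads of the sample). The 2 low ones were the neurofilament genes Nefm and Nefl. Summed over the markers, coverage ran from 2031 to 2059 CPM in siQk and from 1616 to 1692 CPM in siNT, and fibroblast markers stayed at 3.53 CPM or less. Only 1 of 4 endothelial markers reached 1 CPM, while Cdh5 and Tek stayed below it and Kdr was at 0. Summed, the endothelial markers ran from 10.7 to 13.8 CPM in siQk and from 5.64 to 8.97 CPM in siNT. Of 3 oligodendrocyte markers in the table, 2 reached 1 CPM. Their sum ran from 3.23 to 4.96 CPM in siQk and from 3.96 to 4.35 CPM in siNT. The part of these marker differences in the results was not tested. The knockdown was present in every siQk sample: Qk had 8.18, 12.3 and 13.0 CPM in siQk, against 90.8, 82.9 and 82.5 CPM in siNT.

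Most tandem acceptors were dominated by 1 site. The upstream site had a mean use over 98% in 1028 of the 1896 pairs and under 2% in 110. Both sites were in clear use, with a mean from 10 to 90%, in 440 pairs (23.2%), of which 166 lay below 50% and 274 above. In 379 pairs no read in any sample joined to the downstream site. With a median of 658 reads over the 6 samples, a count of 0 allows its use to be up to 0.456% in such a pair. No read joined to the upstream site in 51 pairs. These limits cover counting error only, since the reads carry no molecular identifiers.

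Both sites were in clear use in a larger share of pairs 3 nt apart than at any other distance up to 12 nt. Among pairs 4 nt apart, 66 of 1923 (3.43%) had a mean use from 10 to 90%. The share was 2.88% of 1147 pairs at 5 nt, 1.93% of 1139 at 6 nt, 2.14% of 746 at 9 nt and 3.15% of 381 at 12 nt. Pairs 2 nt apart reached 0.657% of 1066. Pairs over 12 nt apart reached 2.07% of 15490. These shares describe the pairs that the table lists and were not tested, and pairs of different distance also differ in whether the choice keeps the reading frame.

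**Figure D1:**
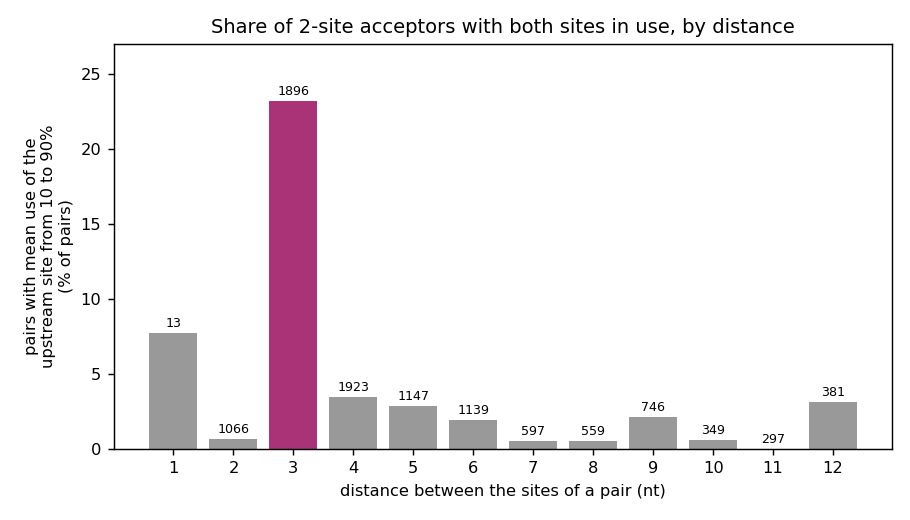
Share of 2-site acceptors whose mean use of the upstream site over all 6 samples was 10 to 90% (vertical axis, % of pairs), by the distance between the sites (horizontal axis, nt). The number over each bar is the number of pairs; the bar at 3 nt reaches 23.2%, and those from 4 to 12 nt reach at most 3.43%.

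The segment could be read for all but 164 pairs, from a GENCODE transcript that covers it. Use of the upstream site differed with its first base, the base before the downstream AG. With CAG as the segment (472 pairs) the median use of the upstream site was 78.96, 78.15 and 77.53% in siQk samples 1 to 3, against 78.59, 78.59 and 77.50% in siNT samples 1 to 3. With TAG (90 pairs) the median of the group means was 84.7% in siQk and 83.5% in siNT. With AAG (511 pairs) it was 99.2% in siQk and 99.1% in siNT, and with GAG (657 pairs) it was 100% in both groups. Both sites were in clear use in 60.8% of CAG, 52.2% of TAG, 9.98% of AAG and 0.761% of GAG segments. These classes depend on which sites are annotated, and annotation went with use. Where both sites are annotated the contrast was smaller. The shares were then 76.1% of 310 CAG, 64.15% of 53 TAG, 38.1% of 84 AAG and 18.75% of 16 GAG segments. The 164 unread pairs have no annotated transcript that covers the segment, and their median was 1.61% in siQk and 2.02% in siNT. Another 2 segments held no AG.

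**Figure D2:**
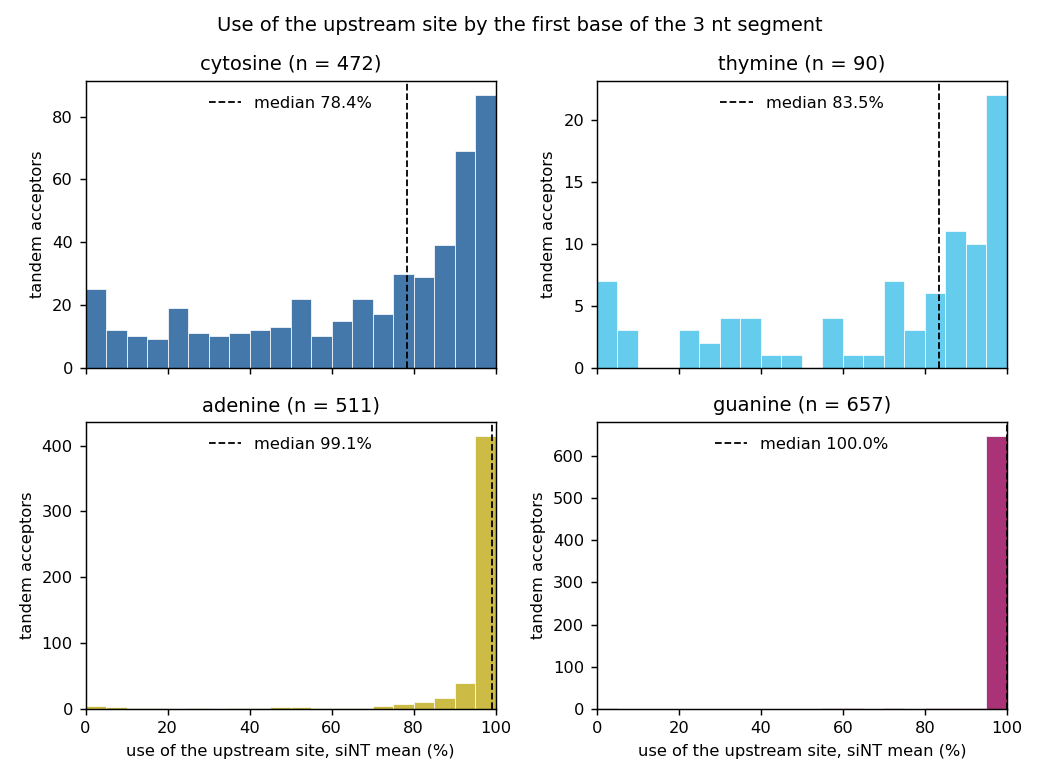
Number of tandem acceptors (vertical axis) by mean use of the upstream site in the 3 siNT samples (horizontal axis, %, bins of 5), in 1 panel for each first base of the 3 nt segment; the dashed line is the median. Segments that start with cytosine spread over the whole range, while 97.1% of those that start with guanine have a mean use over 98%.

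The base before the upstream AG is intronic and could be read for 193 pairs. In these, an exon of some annotated transcript begins further upstream and covers that base, so they are a selected subset. The median use of the upstream site was 98.6% in siQk and 98.6% in siNT for an upstream CAG (120 pairs), and 99.2% in siQk and 98.4% in siNT for TAG (46 pairs). It was 36.7% in siQk and 38.9% in siNT for AAG (18 pairs). For GAG (9 pairs) it was 0.143% in siQk and 0.413% in siNT. Reading both letters together, 43 pairs with CAG at both sites had a median of 72.6% in siQk and 69.9% in siNT, and 30 of them were used at 10 to 90%. The 42 pairs with CAG then GAG all lay over 98%. The 9 pairs with AAG then CAG had a median of 15.2% in siQk and 17.3% in siNT, while the 5 with AAG then GAG had 99.1% in siQk and 100% in siNT. By the medians, the order of use therefore turned round with the downstream base when the upstream base was A, as a description of 18 pairs. It did not hold for every pair: mean use was under 50% in 7 of 9 with AAG then CAG. With AAG then TAG, it was under 50% in 3 of 4.

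Pairs with the same letters still differed widely among themselves. The siNT means of the 43 pairs with CAG at both sites ran from 1.12 to 99.8%, with quartiles at 30.1 and 89.4%. Among the 4 pairs with AAG then TAG, Acbd5, an acyl-CoA binding protein gene, used the upstream site at 56.9% ± 1.36 in siQk and 58.4% ± 3.19 in siNT, while Nol9, a kinase gene of ribosomal RNA processing, used it at 4.92% ± 0.03 in siQk and 4.88% ± 0.12 in siNT. The share of C and T in the 20 intron bases had a median of 75% over 188 pairs and a Pearson correlation with siNT use of -0.13. Over the 42 pairs with CAG at both sites and all 20 bases read, it was -0.27. These correlations are across sites of the same libraries and are descriptions only.

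**Figure D3:**
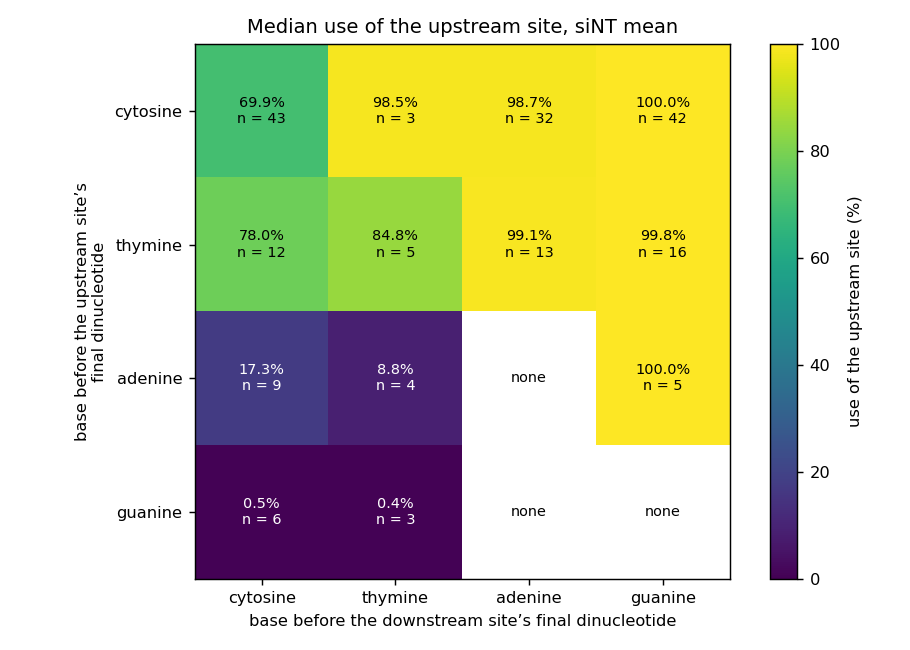
Median use of the upstream site (colour and number, % of reads, mean of the 3 siNT samples) by the base before the upstream AG (rows) and before the downstream AG (columns), with the number of pairs in each cell. The cell for cytosine at both sites is at 69.9%, those with adenine upstream and cytosine or thymine downstream are below 20%, and those with guanine upstream are below 1%.

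Most segments, 1779 of 1896, lay in coding sequence, 99 in 5′ UTRs and 6 in 3′ UTRs of the best-supported transcripts. Both sites were in clear use in 21.5% of coding pairs and 50.5% of 5′ UTR pairs. For CAG segments alone, the median was 80.1% in siQk and 79.7% in siNT in coding sequence (425 pairs) and 55.0% in siQk and 54.8% in siNT in 5′ UTRs (43 pairs). Of the coding pairs, 842 segments lay between codons (phase 0), 665 after the first base of a codon (phase 1) and 272 after the second base (phase 2). Both sites were in clear use in 15.9% at phase 0, 25.6% at phase 1 and 29.0% at phase 2. The letters differ between phases: GAG, the class used least at its downstream site, made up 377 segments at phase 0, 190 at phase 1 and 76 at phase 2. Among CAG segments alone the shares showed no steady rise. They were 55.6% of 178 at phase 0, 63.6% of 165 at phase 1 and 58.5% of 82 at phase 2. At phase 0 a CAG segment adds a glutamine codon (178 pairs), AAG a lysine codon (213 pairs), GAG a glutamate codon and TAG a stop codon.

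An in-frame stop was formed by 6 coding segments, all of them TAG at phase 0, and by none of 1627 others that could be read. Each was checked in a best-supported transcript that uses 1 of its sites. A transcript that codes through the segment cannot show a stop there, so the lack of stops in the others was largely set by the annotation. They lay in Timm44, Trpm2, Mkln1, Dph7, P3h1 and Exosc2, a group singled out after its values had been seen. The median use of the upstream site, which puts the stop into the mRNA, was 3.16% in siQk and 3.25% in siNT. The other 74 coding TAG segments had a median of 87.1% in siQk and 86.7% in siNT. The 6 could be found only where the checked transcript uses the downstream site, and the 74 were not limited in this way. The medians therefore do not compare like sets. The 2 highest of the 6 were Dph7, a gene of diphthamide synthesis, at 44.9% ± 7.03 in siQk and 35.5% ± 3.61 in siNT, and the ion channel gene Trpm2, at 31.4% ± 9.75 in siQk and 23.8% ± 4.89 in siNT. Timm44, a subunit of the mitochondrial import motor, was at 3.70% ± 1.81 in siQk and 2.10% ± 0.84 in siNT. In Exosc2, an exosome subunit whose GAG-TAG sequence is shown above, the upstream site was at 0.143% ± 0.25 in siQk and 0.413% ± 0.54 in siNT. Whether mRNAs with the stop are degraded was not tested, and steady-state reads cannot tell splicing and decay apart.

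Among pairs with at least 100 reads in each sample, the 6 closest to equal use had siNT means from 49.3 to 51.5%. Besides Tcf25 these were Adpgk, Afdn, Ctcf, Dnmt1 and Pard6a. The bases from the segment on, with the segment in capitals, show that both C and A occur at their downstream sites.
Adpgk, chr9:59314731-59314753, plus strand: CAGgtctttcccacggtggcttc
Dnmt1, chr9:20940532-20940554, minus strand: CAGttgaaacttcacctagttcc
Ctcf, chr8:105680071-105680093, plus strand: AAGaaaatgctgagccggatctc
Ctcf, an architectural DNA-binding protein gene, used the upstream site at 49.46, 43.92 and 44.67% in siQk and at 51.71, 48.74 and 49.99% in siNT. Dnmt1, the maintenance DNA methyltransferase gene, had 56.48, 60.71 and 46.52% in siQk and 52.52, 51.23 and 50.66% in siNT. The siQk and siNT samples overlapped in both genes. Adpgk, which encodes a glucokinase that uses ADP, had 52.03, 53.65 and 53.47% in siQk and 47.37, 48.88 and 51.70% in siNT. Its groups did not overlap, and its difference of 3.73 points was not called (limma adjusted p = 0.992). The cell polarity gene Pard6a was at 53.3% ± 5.94 in siQk and 50.7% ± 1.62 in siNT, and the junction adaptor gene Afdn was at 47.1% ± 5.62 in siQk and 49.3% ± 7.89 in siNT.

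Among pairs with a mean use of 2 to 98%, those with the most reads still differed in how far their samples spread. Psap, the lysosomal prosaposin gene, used the upstream site at 92.1% ± 1.06 in siQk and 92.8% ± 0.08 in siNT over 20497 reads. Gnas, which encodes a stimulatory G protein subunit, used it at 7.87% ± 0.36 in siQk and 7.60% ± 0.23 in siNT over 15936 reads. Rbm8a, an exon junction complex gene, was at 48.0% ± 4.72 in siQk and 46.3% ± 4.42 in siNT. Top2a, the topoisomerase gene of dividing cells, was at 64.2% ± 2.95 in siQk and 62.8% ± 0.66 in siNT. Hnrnpl, itself a splicing regulator gene, was at 96.8% ± 2.88 in siQk and 98.0% ± 0.35 in siNT, with the 93.45% of siQk sample 2 as the lowest of the 6 values.

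Tandem acceptors occurred in genes of many functions. The counts here are for chosen gene lists and are not totals for a function. These lists held 145 genes of RNA processing and 172 of chromatin and transcription. A further 178 genes were of the cytoskeleton and membrane traffic, and 151 of signalling and ubiquitin. Genes of RNA processing held 49 of them, of which 10 were used at 10 to 90%. Among these, the RNA helicase gene Dhx9 was at 89.1% ± 1.04 in siQk and 89.2% ± 0.64 in siNT, and Cnot1, the scaffold of a deadenylase complex, was at 69.2% ± 2.66 in siQk and 69.3% ± 1.30 in siNT. The neuronal RNA-binding protein gene Elavl2 used the upstream site less, at 29.7% ± 2.56 in siQk and 32.7% ± 1.32 in siNT, and Acin1 was at 77.2% ± 2.16 in siQk and 77.2% ± 2.20 in siNT. Genes of chromatin and transcription held 92, of which 27 were at 10 to 90%, among them the forkhead factor gene Foxk2 (77.6% ± 1.12 in siQk and 78.0% ± 2.00 in siNT) and the histone methyltransferase gene Nsd2 (75.8% ± 0.47 in siQk and 76.5% ± 1.99 in siNT). Genes of the cytoskeleton and membrane traffic held 78, of which 19 were at 10 to 90%. The dynamin gene Dnm2 was at 60.4% ± 4.05 in siQk and 64.4% ± 1.58 in siNT, the actin regulator gene Vasp at 87.0% ± 0.92 in siQk and 87.4% ± 1.22 in siNT, and Wasf1 at 82.6% ± 1.08 in siQk and 86.1% ± 1.27 in siNT. Genes of signalling and ubiquitin held 69, of which 12 were at 10 to 90%, including the deubiquitinase genes Otud5 (17.5% ± 1.82 in siQk and 20.6% ± 2.13 in siNT) and Usp19 (83.4% ± 1.42 in siQk and 86.0% ± 1.61 in siNT). Over all 1896 pairs the share at 10 to 90% was 23.2%.

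More than 1 tandem acceptor was present in 241 genes, with 4 in each of D930015E06Rik, Depdc5, Gemin5, Kmt2b, Pam, Prrc2c, Syne1 and Trrap. In 14 genes more than 1 was used at 10 to 90%, and use could differ between exons of a gene. Scaf8, which encodes a protein that binds RNA polymerase II, used the upstream site at 77.4% ± 3.13 in siQk and 77.9% ± 2.23 in siNT at an AAG segment. At its other pair it was at 20.1% ± 1.57 in siQk and 19.7% ± 6.52 in siNT. The circadian gene Per3 had 77.1% ± 3.32 in siQk and 77.8% ± 3.83 in siNT at one pair and 26.2% ± 3.39 in siQk and 19.8% ± 4.01 in siNT at the other. Of the pairs of Phf21a, a histone reader gene, one was at 52.9% ± 5.12 in siQk and 50.8% ± 4.24 in siNT, and the other at 61.4% ± 5.40 in siQk and 61.1% ± 4.55 in siNT. Kif7, a kinesin of Hedgehog signalling, had 3 such pairs, with group means from 77.7 to 88.2%. The other genes were 4932438A13Rik, Afdn, Arfgap3, Bdp1, Cobll1, Gemin5, Myo9b, Rfc1, Tcf3 and Usp48.

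Knockdown of Qk changed the use of 1 tandem acceptor by the rule used, that of Ralgapa1, which was higher in siQk. A pair was tested where its mean use was 2 to 98%, and was called changed at a limma adjusted p under 0.05, corrected over all alternative acceptor rows, with a difference of at least 10 points. This rule called 1 of 758 tandem acceptors (0.132%), against 10 of all 9943 alternative acceptor rows (0.101%) and 2 of 1712 pairs more than 3 nt apart (0.117%). Of all rows, 0.0503% were called higher and 0.0503% lower in siQk, and 0.131% passed on the adjusted p alone. All rows include both sites of each 2-site pair, which move in opposite directions. The even split is therefore partly built in and gives no background for direction. At an unadjusted p under 0.05 there were 30 tandem acceptors (3.96%) and 4.85% of all rows. The siQk and siNT samples did not overlap in 65 tandem acceptors (8.58%), 28 higher (3.69%) and 37 lower (4.88%) in siQk, against 9.55% of all rows and 9.52% of pairs more than 3 nt apart. Without regard to direction, the share of tandem acceptors was close to the background by each of these counts.

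The differences were small. The median absolute difference was 1.82 points over the 758 tandem acceptors and 1.61 points over all rows, and the median signed difference was -0.15 points. In 19 tandem acceptors (2.51%) the difference reached 10 points, 9 upward and 10 downward. The share was close to that of all rows (2.67%) and of pairs more than 3 nt apart (2.80%). The 95% interval of the difference lay within ±10 points for 447 of 758 (59.0%) and within ±20 points for 696 (91.8%). Among the 440 pairs with both sites in clear use these shares were 46.8% and 89.5%. For the remaining pairs the interval reached past these bounds. Between replicates, the variance of use was 1.52 times the binomial value in siQk and 1.69 times in siNT among those 440 pairs.

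**Figure D4:**
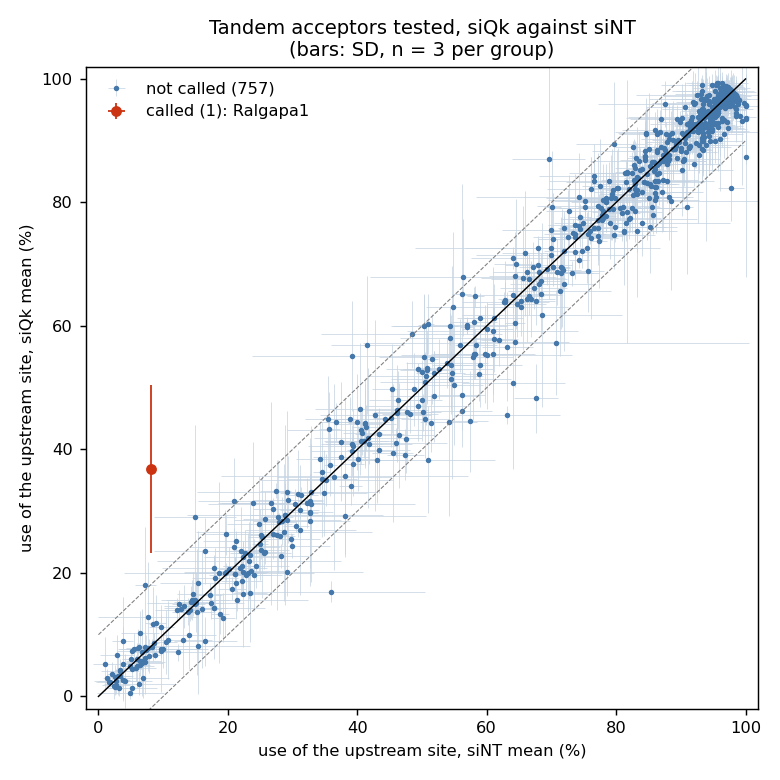
Mean use of the upstream site in siQk (vertical axis, %) against siNT (horizontal axis, %) for the 758 tandem acceptors tested; bars are SD with n = 3 per group, the solid line is equality and the dashed lines are 10 points away. Most points lie between the dashed lines, and Ralgapa1 lies at 36.9% in siQk and 8.19% in siNT.

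Ralgapa1 encodes the catalytic alpha subunit of a complex that switches off the Ral GTPases, which act in membrane traffic. Its pair lay in the 3′ UTR of the best-supported transcripts, and its place in other transcripts was not examined. The segment is CAG, at 55604269 to 55604271 of chromosome 12 on the minus strand, and stands in capitals before the next 20 exon bases.
Ralgapa1, chr12:55604249-55604271, minus strand: CAGgatcctacccagagattcca
The upstream site was used at 21.21, 43.75 and 45.64% in siQk, against 8.16, 7.48 and 8.92% in siNT. All siQk samples were above all siNT samples, and siQk sample 1 was the lowest of its group. The means were 36.9% ± 13.6 in siQk and 8.19% ± 0.72 in siNT, a difference of 28.7 points (95% interval 16.5 to 41.4, limma adjusted p = 5.18e-05, higher in 3 of 3 siQk samples). The pair had 33, 32 and 66 reads in siQk and 234, 175 and 314 reads in siNT. The change was not called when PSI itself was tested in place of the log ratio of reads (adjusted p = 0.774).

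The reads at each site show which of them moved. The upstream site had 0.207, 0.526 and 0.374 CPM in siQk and 0.318, 0.346 and 0.357 in siNT, so its groups overlapped. The downstream site had 0.770, 0.677 and 0.446 CPM in siQk, against 3.58, 4.27 and 3.64 in siNT, and its groups did not. The higher share of the upstream site in siQk went with fewer reads at the downstream site. All these reads leave from the 5′ splice site of a 31 nt exon (chromosome 12, 55612073 to 55612103). That exon was included at 45.78, 76.86 and 55.59% in siQk, against 96.68, 96.47 and 96.84% in siNT. The intron between them was retained at 23.9% ± 9.47 in siQk and 7.32% ± 0.61 in siNT. Junction coverage of the whole gene was 151 ± 3.47 CPM in siQk and 204 ± 9.41 CPM in siNT (log2 fold change -0.43, SE 0.07, limma adjusted p = 0.0183). That adjusted p was 0.0897 without siQk sample 2, 0.103 without siQk sample 3, 0.0624 without siNT sample 2 and 0.0805 without siNT sample 3. The part of these neighbouring differences in the change of the tandem acceptor was not tested.

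**Figure D5:**
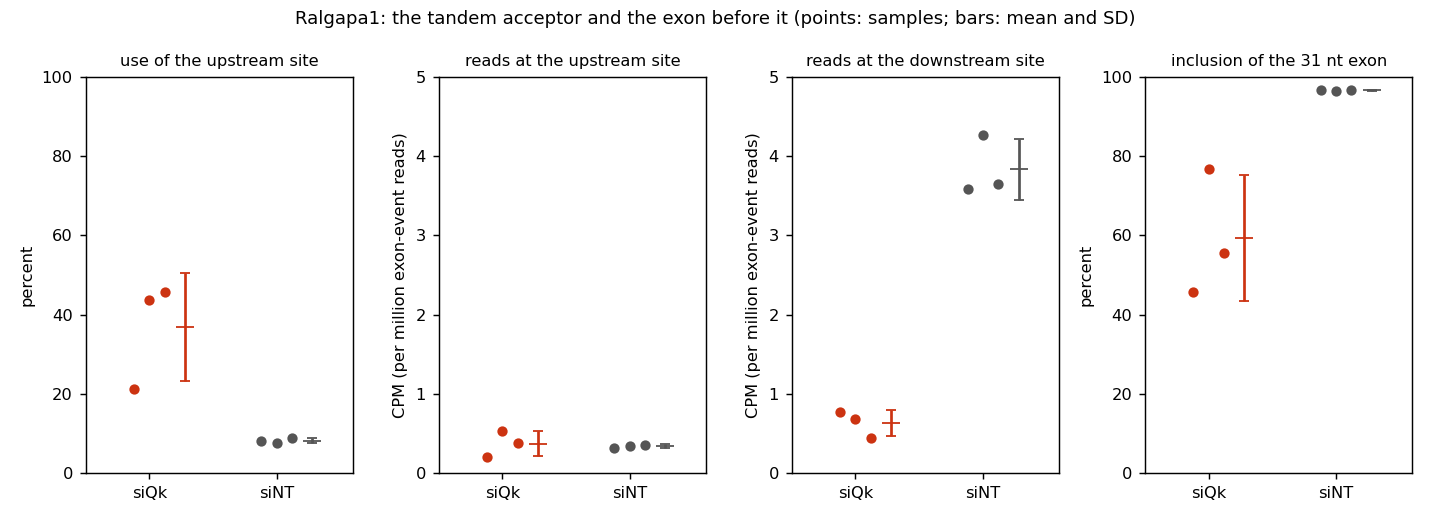
Ralgapa1 in the 3 siQk and 3 siNT samples: use of the upstream site (%), reads at the upstream and at the downstream site (CPM), and inclusion of the 31 nt exon before the tandem acceptor (%). Points are samples and bars are mean and SD; the groups overlap only for the reads at the upstream site.

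None of the next largest differences was called. They were taken from pairs with at least 30 reads in each sample and no overlap between groups. Evi5, a gene of a Rab GTPase regulator, used the upstream site at 40.91, 45.45 and 52.48% in siQk and at 54.12, 52.78 and 61.45% in siNT (difference -9.84 points). Cdan1, a gene linked to red cell development, was at 59.9% ± 5.12 in siQk and 50.4% ± 5.21 in siNT. Ctc1, a telomere maintenance gene, was at 65.16, 60.34 and 55.44% in siQk and at 51.80, 50.02 and 51.15% in siNT. For Rabgef1, an activator of Rab5, the means were 39.1% ± 4.12 in siQk and 47.5% ± 2.91 in siNT. Syde2, Ankle2, Tle4, Srcap, Setd2, Stxbp2 and Phip followed, with absolute differences from 6.34 to 7.67 points, and all 11 had limma adjusted p-values from 0.879 to 0.992. Phip, which encodes a chromatin reader, was at 89.0% ± 0.89 in siQk and 82.7% ± 2.83 in siNT, and has TAG at both sites.
Phip, chr9:82907036-82907081, minus strand: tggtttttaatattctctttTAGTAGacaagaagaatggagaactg

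Junction coverage was compared for genes that act in 3′ splice site selection. Of a list of 51 such genes, 44 were tested and 1 was called, beside 493 of all 10851 genes (4.54%; 2.96% higher and 1.59% lower in siQk), so the count is near the background. With the replicate number as a block, 6 of the list were called, beside 14.3% of all genes. The count over all genes depended on single samples: it was 934 without siQk sample 1, 69 without siQk sample 2, 44 without siQk sample 3, and 176, 92 and 119 without siNT sample 1, 2 and 3. The gene called was Ptbp2, the neuronal polypyrimidine tract binding protein gene, at 132.6, 132.8 and 128.1 CPM in siQk, against 194.2, 180.9 and 173.1 CPM in siNT (log2 fold change -0.48, SE 0.08, limma adjusted p = 0.0152). It was not called when siQk sample 2, siQk sample 3 or siNT sample 2 was left out. The median log2 fold change was 0.06 over the list and 0.02 over all genes. The smallest p-values after it belonged to Phf5a, Slu7, Hnrnpc and Sde2. Phf5a, a subunit of the complex that binds the branch point, had 31.3, 37.2 and 36.9 CPM in siQk and 29.4, 21.3 and 23.8 CPM in siNT (log2 fold change 0.50, adjusted p = 0.0769). Slu7, a second-step factor that acts in the choice of the AG, had 107.7 ± 4.06 CPM in siQk and 90.4 ± 0.79 CPM in siNT (log2 fold change 0.25, adjusted p = 0.0942). U2af1, the subunit that reads the AG and was added for that role, had 29.0 ± 4.02 CPM in siQk and 23.0 ± 3.03 CPM in siNT (log2 fold change 0.33, adjusted p = 0.226). Qk had a log2 fold change of -2.91 (SE 0.16, adjusted p = 0.000301).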

How the data were processed

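PSI percent values and a text cell of another kind with inclusion and exclusion reads were deposited by the authors, per the file headers, in a vast-tools layout. The build is mm10, per the submitters' processing notes, and no source used here names the software. Deposited PSI and the inclusion share of reads differed by at most 0.05 points. Members and gene lists were chosen with earlier results of these data known. For the test, log2((inclusion + 0.5)/(exclusion + 0.5)) was compared with limma 3.58.1 in R 4.3.3 (robust, two-sided, trend on sampling variance) over all alternative acceptor rows with at least 10 reads in each sample and a mean PSI of 2 to 98, with Benjamini-Hochberg adjustment. Exon-event reads were summed per gene, and genes averaging 20 reads or more were compared on log2(CPM + 0.5) by limma with a trend. These sums stand in for expression, count a read once per event, and understate folds of low genes. Sequence, location and phase came from GENCODE M21 transcripts of the row's own gene (APPRIS principal ones first), except for 33 pairs whose sites are used by transcripts of another gene name. Pairs named were the called one, the 12 largest non-overlapping differences with at least 30 reads per sample, the 6 closest to 50% in siNT with at least 100 reads, the 6 deepest with a mean PSI of 2 to 98, up to 4 per functional list, and genes with more than 1 pair at 10 to 90%. One of the deepest pairs is not reported here. Scripts were tested on simulated data. Replicates of a group differed in gene counts by a mean chi-square of 8.74 to 74.8 per gene, so none is a copy of another. The replicate numbers were not taken to pair samples, because nothing states that they mark a shared day. Same-numbered samples deviated together with correlations of 0.058 to 0.11, and other combinations ran from -0.091 to 0.019. These values cannot settle whether the numbers pair samples. Tables and figures used Python 3.11.15, pandas 2.3.3 and matplotlib 3.10.9.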

Additional observations from a re-analysis of the deposited data

How the results depend on the processing

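The number of tandem acceptors called was 1, and Ralgapa1 was that call, under sampling variance weights, 1 added read, no filter on PSI, at least 30 reads, adjusted p alone, 1 row per pair and a replicate block. Testing PSI itself called 0 tandem acceptors and 0 of all rows by limma, with 32 tandem acceptors at an unadjusted p under 0.05 on PSI and 30 on the log ratio. A rule of 15 points with no p-value and no overlap gave 5 of 758 tandem acceptors and 45 of all 9943 rows. The other 4, lower in siQk, were Cobll1 (-19.3 points), Zfyve21 (-19.0), Etv3 (-17.5) and Cntrl (-15.4), named after their values were seen. All rows called numbered 22 with weights, 16 with no filter on PSI, 6 with 1 row per pair and 12 with a replicate block. Leaving out 1 sample gave 1 to 2 tandem acceptors and 6 to 17 of all rows; without siQk sample 3, Tnrc18 was added (100, 100 and 60.95% in siQk, against 75.74, 64.52 and 68.42% in siNT). For Ralgapa1 the adjusted p ran from 2.32e-11 with weights to 0.774 on PSI. All 251 alternative values of 17 named differences kept their direction, which was largely fixed in advance. The difference of mean PSI changes only when a sample is left out. Except for Tnrc18, the groups of these pairs did not overlap, so leaving out a sample could not reverse it. The median siNT use at CAG segments was 78.4%, and 79.7% in coding sequence only. Calls among the splice site selection genes were 1, and 6 under a replicate block, where all genes called numbered 1551 in place of 493; without 1 sample they ran from 0 to 3, and those over all genes from 44 to 934. The cause of these shifts was not tested. Each sample correlated best with its own number, which is a hint from the data only.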

Other observations

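In a few pairs single samples stood far from their group. The TAG pair of Cobll1 was at 65.26, 48.44 and 58.23% in siQk and at 71.55, 100 and 40.36% in siNT, where the 100% rests on 43 reads. The pair of Map4k4, a kinase gene, was at 88.58, 76.64 and 90.55% in siQk and at 94.09, 81.05 and 95.44% in siNT, lowest in sample 2 of each group.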
